A study of Mus musculus with 12 samples.

Results

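Cell cycle and proliferation genes were followed in the livers of germ-free (GF) and conventionalized (CV) mice. The 35 genes were taken by name from a list of G1/S and mitotic genes, and all 35 had a row among the 41128 genes of the table. Of these, 28 had a mean value of at least 10 over the 12 libraries and entered the test across 11782 genes. The mice were C57BL/6 littermates born germ-free and kept in sterile isolators until weaning at about 21 days. GF mice then stayed in isolators, whereas CV mice were housed for 3 weeks on used bedding that carried microbes, and all livers were taken at 6 weeks of age. Each condition held 3 males and 3 females by the labels, with 1 library per mouse, and none of the mice carried a transgene or received a drug by the labels.

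A dividing cell passes from G1 into S phase when D and E type cyclins release the E2F factors, which switch on the genes for DNA replication and nucleotide supply. The A and B type cyclins with Cdk1, the Aurora and Polo kinases and the spindle and kinetochore proteins act later, in G2 and mitosis, and most are degraded as the cell leaves mitosis. Hepatocytes of a growing liver still divide after weaning and then become quiescent, whereas blood-forming cells and lymphocytes in the organ can divide as well.

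The libraries differed in composition between the conditions. Recovered reads per library were 5993619 to 10975691 in GF and 8890529 to 15290835 in CV livers, but the share of reads in nuclear protein-coding genes other than Lars2 was 24.3% to 50.8% in GF and 73.9% to 92.2% in CV livers. The mitochondrial ribosomal RNA genes took 9.36% to 16.4% of GF reads and 1.39% to 6.32% of CV reads. The hepatocyte markers Alb, Apoa1 and Ttr were abundant in every library. The library labelled CV male 3 held 0 reads in 4 Y-linked genes, against at least 796 in the other 5 libraries labelled male, and an Xist value of 2382, so its sex markers went against its label. Calls of members that changed without it are given below, with the changes of Ccnd1, Mki67, Cdk1 and Mcm7. Values, and statements that libraries overlap or not, are under the deposited scaling unless another is named.

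Over both sexes, 14 of the 28 tested members were called by limma at an adjusted p under 0.05, 4 higher and 10 lower in CV livers, whereas 61.1% of all genes tested were called, 32.3% higher and 28.7% lower. The share of members called, 50%, was thus not above the background. All 4 higher members, Rrm2, Pcna, Rrm1 and Tyms, supply nucleotides or clamp the replicative polymerase, and 9 of the 10 lower members are mitotic genes. The filter used the mean over both conditions, so genes high only in GF livers could enter the test through those libraries. The median log2 change was -0.13 for the 10 replication members and -1.59 for the 14 tested mitotic members, against 0.07 for all genes. In bulk liver, fewer dividing cells and less of these RNAs per cell cannot be told apart.

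**Figure D1:**
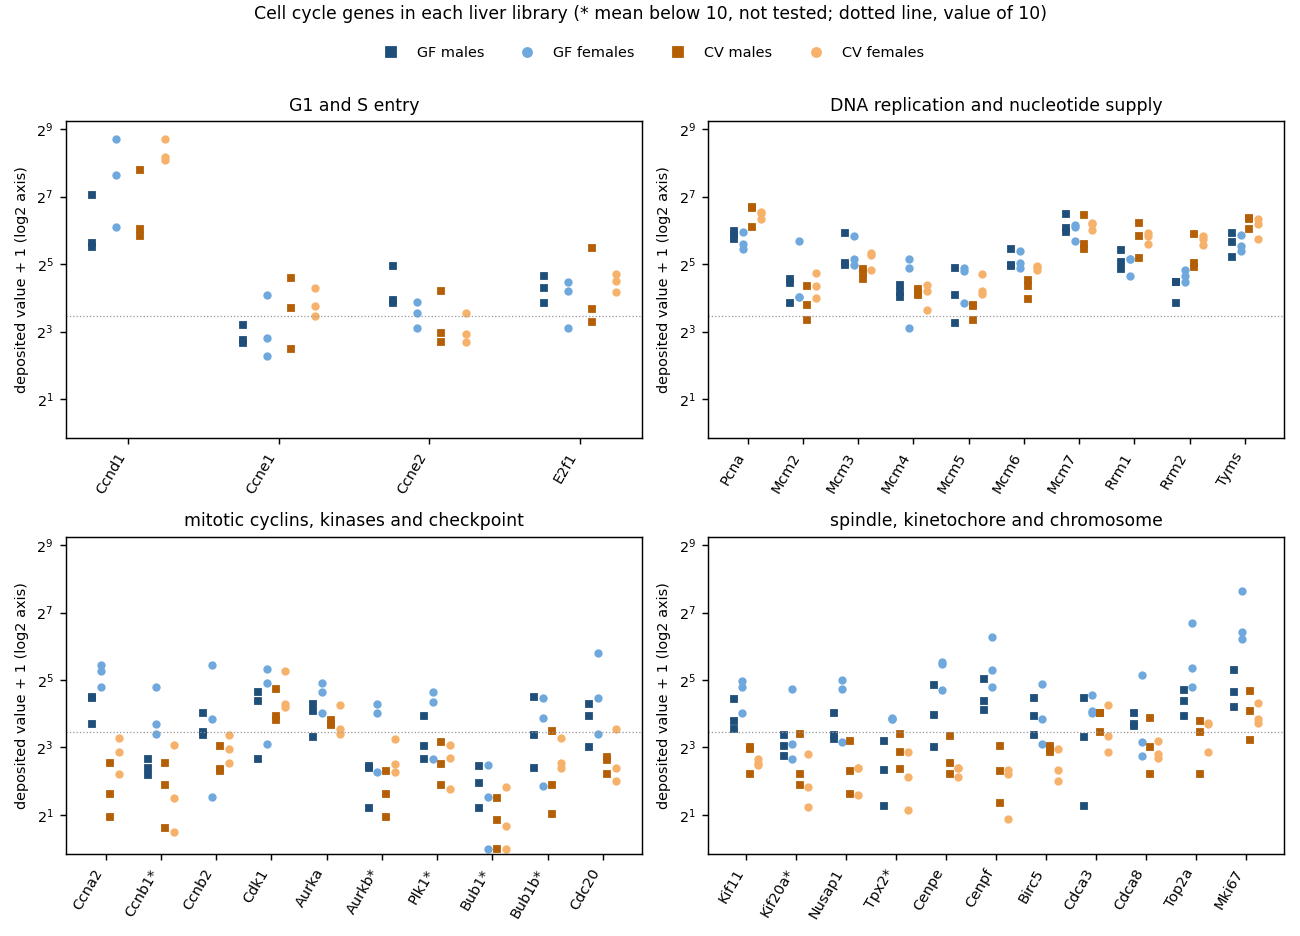
Deposited value plus 1 of each of the 35 genes (log2 axis) in each of the 12 libraries, in 4 panels by role, with GF males, GF females, CV males and CV females as separate columns of 3 points. In the mitotic panels the CV points mostly lie below the GF points and many fall under the dotted line at a value of 10, whereas Pcna, Rrm1, Rrm2 and Tyms lie higher in CV livers under the deposited scaling.

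None of the 4 members of G1 and S phase entry was called over both sexes, in males or in females. Ccnd1, cyclin D1, which couples growth signals to G1 progression, had values of 44.8, 132 and 48.2 in GF males, 198, 415 and 67.1 in GF females, 65.1, 56.4 and 220 in CV males, and 271, 415 and 287 in CV females. The CV and GF libraries overlapped in each sex, and the highest value, 415, was reached in a GF and in a CV female. The log2 change in CV was 0.67 ± 0.41 (SE, adjusted p = 0.169) over both sexes and 0.50 ± 0.58 in males. Leaving out the library labelled CV male 3 gave Ccnd1 a change of 0.36 (adjusted p = 0.417) over both sexes and -0.12 in males. Ccnd1 had a male minus female difference of -1.59 ± 0.41 on the log2 scale (limma adjusted p = 0.0909), which was not called, and 1.16% of all genes were called for that contrast. Without CV male 3, whose value of 220 lay among the females, the sex difference was -1.89 with an adjusted p of 0.00909. It also passed without GF male 2 (-1.83, adjusted p = 0.0482) and without GF female 3 (-1.93, adjusted p = 0.0141).

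The E type cyclins, which drive the entry into S phase, gave values of opposite sign. Ccne1 was 7.48 ± 4.37 (SD, n = 6) in GF and 13.5 ± 6.48 in CV livers, a log2 change of 0.75 ± 0.44 (adjusted p = 0.148) that passed without the library labelled CV male 3 (1.03, adjusted p = 0.0468). Ccne2 was 14.8 ± 7.61 in GF and 8.76 ± 4.70 in CV livers, a log2 change of -0.70 ± 0.38 (adjusted p = 0.124), which passed without CV male 2 (adjusted p = 0.0492). E2f1, which activates S phase genes, had a log2 change of 0.21 ± 0.38 (adjusted p = 0.651), and its highest value, 43.7, was in CV male 1.

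Nucleotide supply and the clamp were higher in CV livers under the deposited scaling, whereas scaled to nuclear coding reads Tyms was at -0.10 over both sexes and, in females, Pcna at -0.090 and Rrm1 at -0.10. Rrm2, the regulated small subunit of ribonucleotide reductase, had values of 13.4, 21.3 and 21.3 in GF males, 27.2, 23.9 and 21.1 in GF females, 57.8, 31.8 and 29.1 in CV males, and 55.9, 46.4 and 52.4 in CV females. Every CV library lay above every GF library under the deposited scaling. As shares of nuclear coding reads they overlapped, with 18 of 2163040 in GF female 1, a larger share than the 40 of 6857637 in CV male 2. Scaled to nuclear coding reads, Rrm2 was not called higher over both sexes. Rrm2 rose by 1.04 ± 0.24 on the log2 scale over both sexes (adjusted p = 0.00126), by 1.01 ± 0.33 in males (adjusted p = 0.034) and by 1.07 ± 0.33 in females (adjusted p = 0.0125). The call in males was lost without GF male 1 (adjusted p = 0.14), GF male 3 (0.0548), CV male 1 (0.134) or any 1 CV female (0.051 to 0.0524), since the groups share 1 estimate of the spread. Removal of a trend on transcript length and GC content gave Rrm2 0.71 in males (adjusted p = 0.107) and 0.57 in females (adjusted p = 0.146), neither called, and thinning to equal coding reads ended the female call (adjusted p = 0.0759). Rrm1, the large subunit, had values of 42.1, 27.9 and 32.6 in GF males, 34.7, 23.9 and 34.5 in GF females, 72.9, 34.98 and 56.3 in CV males, and 60.1, 47.0 and 55.4 in CV females. Its female libraries did not overlap, and among the males CV male 2 lay within the GF range. Rrm1 rose by 0.71 ± 0.22 over both sexes (adjusted p = 0.0119) and by 0.80 ± 0.32 in females (adjusted p = 0.0421), and the female call was lost when any 1 of 7 libraries was left out (GF male 3, each GF female and each CV female), with adjusted p between 0.0503 and 0.125. It was also lost with TMM scaling (0.0541), edgeR with TMM (0.0748) or RLE factors (0.0704), DESeq2 (0.0918), voom (0.129) and thinning (0.0889).

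Pcna, the sliding clamp of the replicative polymerases, had values of 52.8, 62.5 and 56.7 in GF males, 46.8, 61.2 and 42.2 in GF females, 101, 66.8 and 101 in CV males, and 90.4, 92.0 and 80.1 in CV females. All 6 CV libraries lay above all 6 GF libraries under the deposited scaling. Pcna rose by 0.71 ± 0.18 over both sexes (adjusted p = 0.00296) and by 0.81 ± 0.26 in females (adjusted p = 0.0137), and in males the change was 0.61 ± 0.26 (adjusted p = 0.0816). The female call was lost without GF female 3 (adjusted p = 0.0511) or CV female 2 (0.0501), and the male change passed without CV male 2 (0.0425). Tyms, thymidylate synthase, rose by 0.58 ± 0.20 over both sexes (adjusted p = 0.018), from 48.0 ± 9.28 in GF to 71.7 ± 10.9 in CV livers. Tyms was called in neither sex alone, and its call over both sexes was lost without CV female 2 (adjusted p = 0.0546) and after thinning (0.21, adjusted p = 0.498). The female call of Pcna was lost after trend removal (0.17, adjusted p = 0.565) and thinning (0.52, adjusted p = 0.18).

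The 6 members of the Mcm helicase, which unwinds DNA at the replication fork, did not follow the nucleotide genes. Their log2 changes over both sexes ran from -0.53 for Mcm6 to -0.09 for Mcm7 under the deposited scaling, and Mcm6 was at 0.011 when scaled to all reads and Mcm7 at 0.0067 without the library labelled CV male 3. Mcm6 had values of 43.0, 30.6 and 29.8 in GF males, 40.8, 31.9 and 28.8 in GF females, 19.3, 22.3 and 14.5 in CV males, and 29.9, 27.5 and 28.9 in CV females. The male libraries did not overlap and the female libraries did. Mcm6 fell by 0.53 ± 0.22 over both sexes with an adjusted p of 0.0488, and leaving out any 1 of 9 of the 12 libraries took it above the threshold (0.0505 to 0.117). In the limma fit of the deposited values, Mcm2, Mcm3, Mcm4, Mcm5 and Mcm7 were called in no comparison of the conditions. Each of them passed over both sexes under some other setting.

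Under the deposited scaling, Mcm6 and the nucleotide genes had changes of opposite sign, which did not hold under every scaling given above. Promoter sequences of a few replication members are shown for that reason. They are the 250 bases before the RefSeq start (GRCm38), 5′ to 3′, with capitals marking E2F letters (TTTCCCGC, TTTGGCGC or TTTCGCGC, with overlaps counted) and CCAAT on either strand.
Mcm6 promoter, chr1:128359706-128359955, minus strand: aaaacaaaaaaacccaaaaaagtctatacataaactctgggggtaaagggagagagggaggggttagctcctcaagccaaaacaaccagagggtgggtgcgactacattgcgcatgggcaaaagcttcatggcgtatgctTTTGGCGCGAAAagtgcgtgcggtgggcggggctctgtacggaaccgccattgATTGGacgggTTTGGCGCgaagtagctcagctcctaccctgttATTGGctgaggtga
Rrm2 promoter, chr12:24708004-24708253, plus strand: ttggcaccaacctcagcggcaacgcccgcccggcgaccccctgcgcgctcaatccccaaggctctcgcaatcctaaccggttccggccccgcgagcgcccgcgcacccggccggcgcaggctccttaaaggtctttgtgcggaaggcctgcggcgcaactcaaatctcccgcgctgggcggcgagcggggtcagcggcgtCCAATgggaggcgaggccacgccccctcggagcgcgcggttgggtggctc
Pcna promoter, chr2:132253181-132253430, minus strand: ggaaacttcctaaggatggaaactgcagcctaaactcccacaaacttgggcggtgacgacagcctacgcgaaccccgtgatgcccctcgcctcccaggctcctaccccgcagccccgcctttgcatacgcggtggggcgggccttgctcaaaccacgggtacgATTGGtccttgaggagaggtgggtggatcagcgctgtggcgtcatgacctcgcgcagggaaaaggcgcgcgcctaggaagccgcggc
E2F letters stood in 1.53% of all 32851 promoter windows of this length and in 3 of the 10 windows of replication members, namely those of Mcm5, Mcm6 and Mcm7. The windows of the 4 higher members held none, and 3 of the 4 held CCAAT, which is in 33.8% of all windows. A match is a description of the letters, and their use in these livers was not tested. Other forms of the E2F site and bases after the start were not searched, so a window without a match is not shown to lack a site.

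Of the 10 mitotic cyclins, kinases and checkpoint genes, 5 were too low to enter the test. Of the 5 tested, 2 were lower (28.7% of all genes), 0 were higher (32.3% of all genes) and 3 were not called. Ccna2, cyclin A2, which acts in S phase and at the entry into mitosis, had values of 21.5, 12.0 and 21.3 in GF males, 42.3, 37.2 and 26.8 in GF females, 2.08, 4.77 and 0.909 in CV males, and 6.31, 8.73 and 3.61 in CV females. All CV libraries lay below all GF libraries. Ccna2 fell by 2.45 ± 0.38 over both sexes (adjusted p = 4.85e-05), by 2.53 ± 0.54 in males (adjusted p = 0.00391) and by 2.38 ± 0.54 in females (adjusted p = 0.0015). Its exons overlap those of Exosc9 on the opposite strand, and whether reads were counted by strand is not given in the sources used here. Exons of Ccnd1, Ccne2, Mcm7, Plk1, Kif20a and Cdca8 also overlap genes on the opposite strand. Cdc20, the activator of the anaphase-promoting complex, had values of 14.3, 18.6 and 7.09 in GF males, 54.3, 21.3 and 9.58 in GF females, 5.20, 5.57 and 3.63 in CV males, and 4.21, 10.7 and 3.01 in CV females. CV female 2 lay within the GF female range, and the male libraries did not overlap. Cdc20, which overlaps Elovl1 on the opposite strand, fell by 1.57 ± 0.45 over both sexes (adjusted p = 0.00688) and by 1.91 ± 0.64 in females (adjusted p = 0.0186). The female call was lost without GF female 1 (adjusted p = 0.12), CV female 1 (0.0596) or CV female 3 (0.0818), and scaled to all reads Cdc20 was called neither in females (-1.19, adjusted p = 0.135) nor over both sexes (-1.07, adjusted p = 0.0549).

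Cdk1, the kinase that the A and B type cyclins activate at mitosis, did not move with them. Its values were 5.37, 20.0 and 24.1 in GF males, 39.2, 29.3 and 7.67 in GF females, 13.0, 14.3 and 25.4 in CV males, and 17.2, 37.6 and 18.7 in CV females. The groups overlapped, and the log2 change was 0.19 ± 0.43 (adjusted p = 0.713), or 0.050 without the library labelled CV male 3. Ccnb2, a B type cyclin, was 15.3 ± 14.0 in GF and 6.06 ± 2.13 in CV livers, a log2 change of -0.84 ± 0.54 (adjusted p = 0.184). Ccnb2 passed without GF female 3, whose value of 1.92 was the lowest of all libraries (adjusted p = 0.0101 over both sexes and 0.0322 in females). Aurka, the kinase of the spindle poles, had a log2 change of -0.48 ± 0.31 (adjusted p = 0.185).

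The 7 members below the mean of 10 were Ccnb1, Aurkb, Plk1, Bub1, Bub1b, Kif20a and Tpx2. Over both sexes each had a lower mean in CV than in GF livers, on 0 to 24 reads per library, but in males the mean of Tpx2 was 4.49 in GF and 6.69 in CV livers. Ccnb1, cyclin B1, was 3.58, 5.32 and 4.25 in GF males, 12.1, 26.6 and 9.58 in GF females, 0.520, 4.77 and 2.73 in CV males, and 0.421, 7.39 and 1.81 in CV females. The female libraries did not overlap and the male libraries did. With genes of a mean of at least 1 tested, limma gave Ccnb1 a log2 change of -1.51 over both sexes (adjusted p = 0.0146) and -2.28 in females (adjusted p = 0.0114). Under that filter Tpx2, which activates Aurka on the spindle, was lower in females (-1.81, adjusted p = 0.0191), and the other 5 low members were called in no comparison of the conditions. Plk1, the Polo kinase, was called over both sexes by the edgeR quasi-likelihood test with TMM factors (-1.28, adjusted p = 0.0235). Bub1, a kinase of the spindle checkpoint, held 0 to 6 reads per library, so no difference in it was detectable at this depth. The mean of 10 lay just above Plk1 (8.83) and just below Nusap1 (10.2).

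Spindle, kinetochore and chromosome genes had the largest share called over both sexes among the role groups of members, 77.8%. In females 7 of the 9 tested were lower (26% of all genes), and in males 1 was (15.4% of all genes). Of the 9 tested, 7 were lower in CV livers over both sexes (28.7% of all genes) and 0 were higher (32.3% of all genes). The filter used the mean over both conditions. Cenpf, Cenpe, Kif11, Nusap1, Birc5 and Top2a had CV means below it and entered the test through their GF values. The count of lower genes is thus not independent of the filter, which was also applied to all genes. The median log2 change was -1.67. Cenpf, a large kinetochore protein made in G2, had values of 16.1, 31.9 and 19.8 in GF males, 77.0, 26.6 and 38.3 in GF females, 1.56, 3.98 and 7.27 in CV males, and 0.841, 4.03 and 3.61 in CV females. All CV libraries lay below all GF libraries, and the mean was 9.86-fold lower in CV livers. Cenpf fell by 2.96 ± 0.42 over both sexes (adjusted p = 2.43e-05), by 2.27 ± 0.60 in males (adjusted p = 0.0118) and by 3.65 ± 0.60 in females (adjusted p = 0.000126). The male call of Cenpf was lost without CV male 1 (adjusted p = 0.0505), after removal of the length and GC trend (-1.44, adjusted p = 0.0855) and after thinning (-1.69, adjusted p = 0.0667). Cenpe, the kinetochore motor that aligns chromosomes, had values of 27.8, 14.6 and 7.09 in GF males, 43.8, 45.2 and 24.9 in GF females, 3.64, 4.77 and 9.09 in CV males, and 4.21, 3.36 and 4.21 in CV females. The library labelled CV male 3 exceeded GF male 3, and the females were far apart. Cenpe fell by 2.10 ± 0.38 over both sexes (adjusted p = 0.000206) and by 2.94 ± 0.54 in females (adjusted p = 0.00031). In males the change of Cenpe was -1.25 ± 0.54 (adjusted p = 0.0916), which passed without GF male 3 (0.0458).

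Mki67, the proliferation antigen that coats mitotic chromosomes, had values of 38.5, 17.3 and 24.1 in GF males, 196, 85.1 and 72.8 in GF females, 8.33, 15.9 and 24.5 in CV males, and 12.2, 18.8 and 13.2 in CV females. The GF females stood above all other libraries, and the male libraries overlapped. Mki67 fell by 1.76 ± 0.32 over both sexes (adjusted p = 0.000186) and by 2.80 ± 0.45 in females (adjusted p = 0.000105), and in males the change was -0.72 ± 0.45 (adjusted p = 0.236), or -1.07 (adjusted p = 0.111) without the library labelled CV male 3. The difference between the male and the female change was 2.07 ± 0.64 with a limma adjusted p of 0.417, and 0.0498 without CV male 1. Top2a, the topoisomerase that untangles replicated DNA, had values of 25.1, 20.0 and 14.2 in GF males, 103, 26.6 and 40.3 in GF females, 3.64, 12.7 and 9.99 in CV males, and 6.31, 12.1 and 12.0 in CV females. All CV libraries lay below all GF libraries. Top2a fell by 1.69 ± 0.38 over both sexes (adjusted p = 0.00108) and by 2.19 ± 0.53 in females (adjusted p = 0.00255), and in males the change was -1.19 ± 0.53 (adjusted p = 0.103).

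The other called genes of this group build or move the spindle or guard chromosome passage. Kif11, the motor that separates the spindle poles, fell from 19.4 ± 7.84 in GF to 5.40 ± 1.34 in CV livers, by 1.61 ± 0.35 on the log2 scale (adjusted p = 0.000893). Nusap1, which bundles spindle microtubules and overlaps Oip5 on the opposite strand, fell from 16.2 ± 9.74 to 4.11 ± 2.24, by 1.67 ± 0.45 (adjusted p = 0.0044). Birc5, survivin, a subunit of the chromosomal passenger complex, fell from 15.8 ± 7.90 to 5.69 ± 1.74, by 1.24 ± 0.40 (adjusted p = 0.013). These 3 genes did not overlap between the conditions in either sex and were called in females. After thinning to equal coding reads, the changes over both sexes were not called for Kif11 (-0.86, adjusted p = 0.157) and Birc5 (-0.72, adjusted p = 0.166), and Birc5 was not called when scaled to all reads (-0.75, adjusted p = 0.146). In females the call of Birc5 was lost without GF female 1 (adjusted p = 0.156), CV female 2 (0.0786) or CV female 3 (0.109). Cdca8, borealin of the same complex, had a log2 change of -0.77 ± 0.45 (adjusted p = 0.145) and Cdca3 one of 0.03 ± 0.47 (adjusted p = 0.959).

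Promoter windows of 4 mitotic members are shown because Top2a, Mki67 and Cdc20 were lower in CV livers and Cdk1 was not. They are the 250 bases before the RefSeq start (GRCm38), with capitals marking CCAAT, the E2F letters given above and the letters of the cell cycle homology region (CHR). The first form of the CHR searched was TTTGAA. The other form searched, also on both strands and with overlaps counted, was TTCGAA.
Top2a promoter, chr11:99024190-99024439, minus strand: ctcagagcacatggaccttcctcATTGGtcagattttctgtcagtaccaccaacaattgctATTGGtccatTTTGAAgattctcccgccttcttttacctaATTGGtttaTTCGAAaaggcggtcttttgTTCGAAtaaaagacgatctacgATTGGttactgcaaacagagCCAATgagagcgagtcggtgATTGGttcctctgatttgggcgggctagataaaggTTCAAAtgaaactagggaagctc
Mki67 promoter, chr7:135716380-135716629, minus strand: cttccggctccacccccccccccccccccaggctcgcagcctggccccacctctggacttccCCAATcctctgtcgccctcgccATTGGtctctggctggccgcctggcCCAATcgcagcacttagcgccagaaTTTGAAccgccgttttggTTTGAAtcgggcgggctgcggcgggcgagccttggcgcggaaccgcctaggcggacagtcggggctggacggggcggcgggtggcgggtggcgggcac
Cdc20 promoter, chr4:118437344-118437593, minus strand: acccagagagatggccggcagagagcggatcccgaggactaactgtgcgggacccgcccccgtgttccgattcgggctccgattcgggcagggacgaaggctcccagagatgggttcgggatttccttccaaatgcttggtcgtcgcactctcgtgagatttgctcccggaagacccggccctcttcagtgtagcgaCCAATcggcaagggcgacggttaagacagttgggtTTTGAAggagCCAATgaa
Cdk1 promoter, chr10:69352913-69353162, minus strand: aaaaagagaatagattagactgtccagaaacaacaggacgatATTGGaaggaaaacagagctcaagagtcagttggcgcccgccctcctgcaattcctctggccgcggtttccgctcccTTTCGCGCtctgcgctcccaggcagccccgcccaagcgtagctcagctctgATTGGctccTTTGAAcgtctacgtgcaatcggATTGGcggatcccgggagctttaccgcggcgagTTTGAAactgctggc
The CHR letters stood in 17.1% of all windows, in 4 of 8 windows of the mitotic cyclin, kinase and checkpoint members and in 3 of 9 of the spindle group. CCAAT stood in 8 of 8 and in 7 of 9. Top2a held 4 CHR matches, Mki67 and Cdk1 held 2 each, and Cenpf held none. CHR letters were in 4 of 9 windows of called lower members and in 4 of 12 of members not called.

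**Figure D2:**
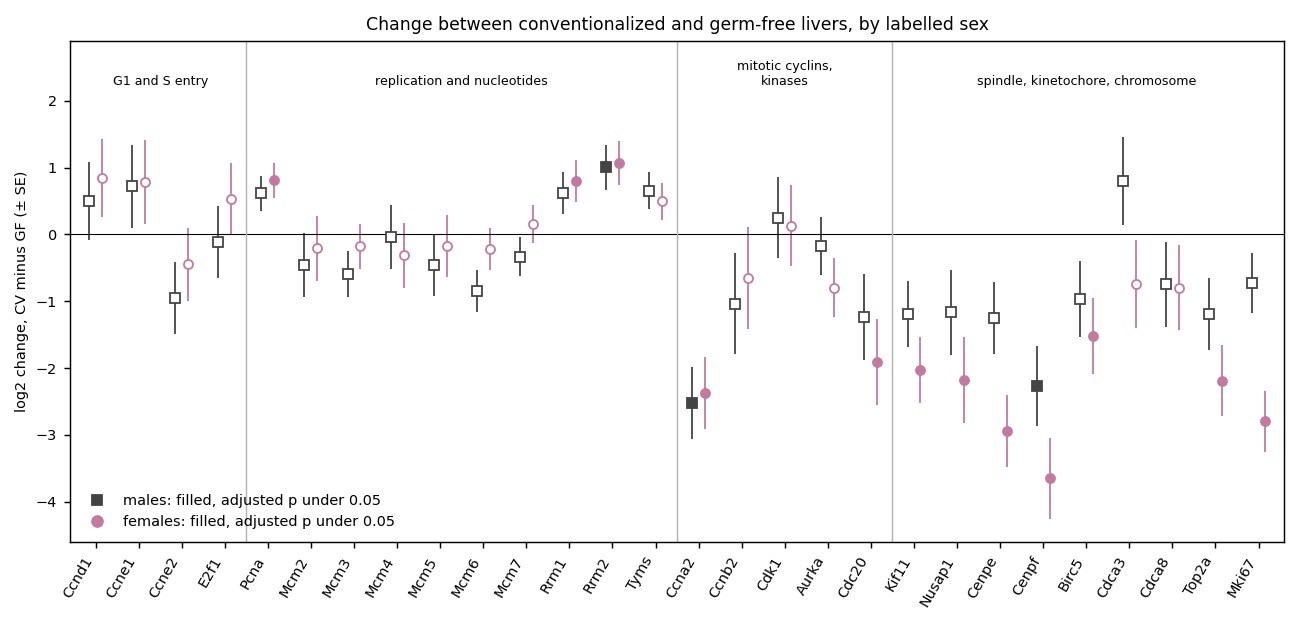
Log2 change between CV and GF livers (± SE) of the 28 tested members in males (squares) and females (circles), ordered by role, with filled symbols for an adjusted p under 0.05. The mitotic members lie mostly below 0, further in females than in males for Mki67, Cenpe and Cenpf, and Pcna, Rrm1, Rrm2 and Tyms lie above 0 in both under the deposited scaling.

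By sex, the calls were unequal in number. In females 12 of 28 members were called, 3 higher and 9 lower (55.8% of all genes tested were called, 29.8% higher and 26% lower), and in males 3 of 28, with Rrm2 higher and Ccna2 and Cenpf lower (29.5% of all genes, 14.1% higher and 15.4% lower). The groups did not overlap for 11 members in females (64.9% of all genes, 34% higher and 31% lower) and for 13 in males (43% of all genes, 22% higher and 21.1% lower). Without the library labelled CV male 3, the same 3 members were called in males, with log2 changes of 1.19 for Rrm2, -2.15 for Ccna2 and -2.67 for Cenpf, and the same 12 in females. Over both sexes 13 of the 14 calls remained without it, Mcm6 being lost (adjusted p = 0.113) and Ccne1 gained. The test of the difference between the sexes called 0 of the 28 members and 0 of all genes in limma, with 1382 genes at an unadjusted p under 0.05. The calls in females and not in males are therefore not shown to differ by sex.

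The mitotic values also differed among the GF females. Summed over the 21 mitotic members, the value was 304, 258 and 238 in GF males, 873, 458 and 389 in GF females, 115, 165 and 153 in CV males, and 129, 186 and 125 in CV females. Under the deposited scaling all GF libraries lay above all CV libraries, and GF female 1 stood above the other GF females. As shares of all reads the conditions overlapped. GF male 2 held 194 mitotic reads of 7838817, a smaller share than the 277 of 10743254 in CV female 2. These sums rest on 168 to 578 reads per library. GF female 1 held the highest value of 15 of the 21 mitotic members and of 1 of the 10 replication members. Without GF female 1, 9 mitotic members were still called lower over both sexes, with a median log2 change of -1.34 over the 14 tested. By contrast, the replication sum was 318 to 404 in GF and 335 to 494 in CV livers, which overlapped.

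Erythroid and lymphocyte markers were mostly lower in CV livers, as was the mitotic sum. Among 7 erythroid markers, 4 of the 5 tested were lower in CV livers (the globins Hba-a1, Hba-a2, Hbb-bs and Hbb-bt), against 28.7% of all genes. The sum of the 7 markers was 2787 to 32922 in GF and 916 to 3162 in CV livers. It was highest in GF female 2, not in GF female 1, and did not follow the mitotic sum within GF livers. GF male 3, with the lowest mitotic sum of the GF libraries, came next at 14046. The erythroid membrane gene Slc4a1 reached 49.6 in GF and at most 2.73 in CV livers, with 0 in CV female 1. Among 7 lymphocyte markers, 4 of the 5 tested were lower (28.7% of all genes), the T cell genes Cd3e, Cd3g and Cd8a among them. The sums were 125 to 229 in GF and 38.0 to 55.7 in CV livers, with the highest in GF female 1. In contrast, 4 of 8 macrophage markers were higher in CV livers, against 32.3% of all genes. The sum of 6 neutrophil and precursor markers, all too low to test, was 1.92 to 23.9 in GF and 0.520 to 22.9 in CV livers. The 6 markers together held 1 to 9 reads per library in GF and 1 to 38 in CV livers, so the value of 0 for Mpo in all GF libraries was at the floor. The part of these cells in the mitotic values was not tested.

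**Figure D3:**
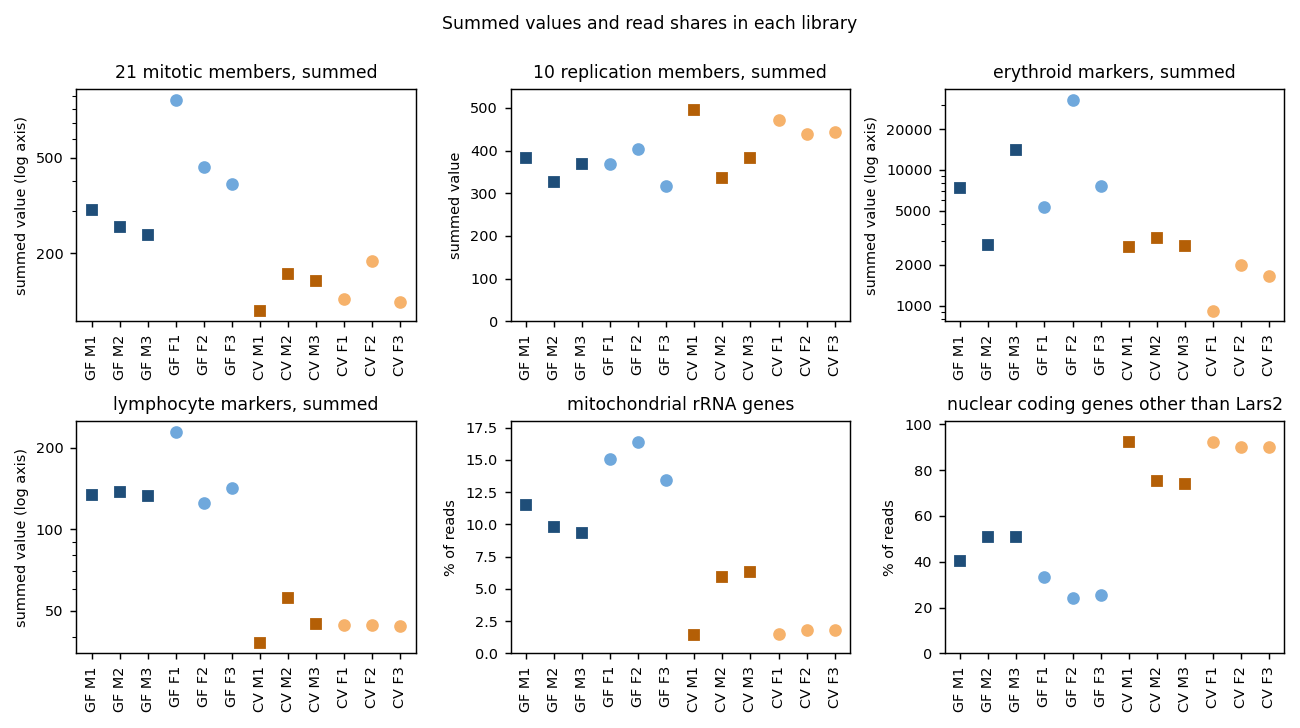
Summed values of the mitotic members, the replication members, the erythroid and the lymphocyte markers, and the percent of reads in mitochondrial rRNA genes and in nuclear coding genes other than Lars2, 1 point per library. GF female 1 has the highest mitotic sum (873) and lymphocyte sum (229), GF female 2 the highest erythroid sum (32922), and the read shares separate GF from CV libraries.

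Transcript length moved with the condition across all genes. The median log2 change was 0.73 for genes with transcripts up to 1500 bases, 0.48 from 1500 to 3000, -0.02 from 3000 to 5000 and -0.64 above 5000 bases. The lower members had a median of 4587 bases, with Cenpf (11130 bases), Mki67 (10061 bases) and Cenpe (7910 bases), but also Cdc20 (1793 bases) and Ccna2 (2965 bases). The 4 higher members ran from Pcna (1518 bases) and Rrm2 (2193 bases) to Tyms (3884 bases) and Rrm1 (5475 bases). After removal of a trend on length and GC content from each library, 11 members were lower and 3 higher over both sexes, against 25.5% and 30.9% of all genes, and all 11 were mitotic. Ccna2 fell by 2.64, Cdc20 fell by 2.15, Cenpf fell by 1.82 and Mki67 fell by 0.70 (adjusted p = 0.0454), the last a much smaller change than before. Ccnb2 (-1.47, adjusted p = 0.0268) and Aurka (-1.05, adjusted p = 0.00667), both with short transcripts, were then called as well. Rrm1 rose by 1.11, Rrm2 by 0.64 and Tyms by 0.61, whereas Pcna had a change of 0.21 (adjusted p = 0.285) and Mcm6 one of -0.39 (adjusted p = 0.127).

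**Figure D4:**
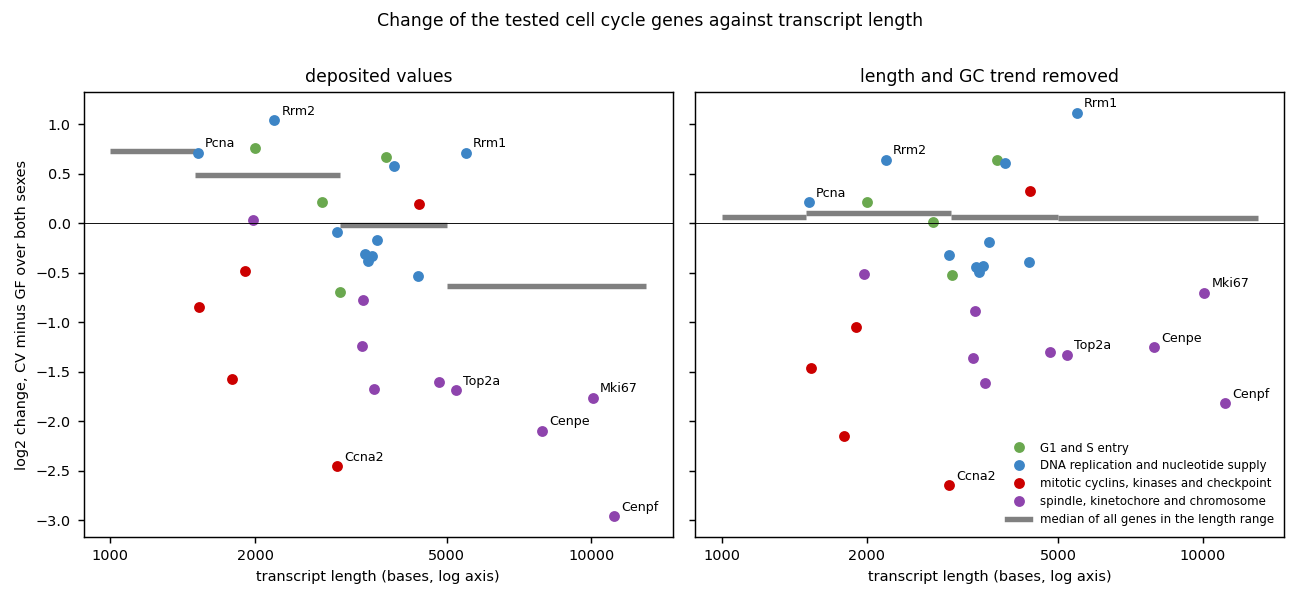
Log2 change over both sexes against transcript length (log axis) for the 28 tested members, coloured by role, from deposited values and after removal of the length and GC trend, with grey bars for the median of all genes in each length range. On the left the grey bars fall from 0.73 to -0.64 with length, and on the right they are level while Ccna2 and most mitotic members stay below them.

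The sign of the replication changes depended on the scaling, and the median of the mitotic members was below 0 under each setting shown here. Scaled to all reads, which moved the median of all genes to 0.62, 6 members were higher and 7 lower, against 50.3% and 13.7% of all genes. Scaled to nuclear coding reads, which moved it to -0.59, 0 were higher and 19 lower, against 12.7% and 49.8% of all genes. Relative to all genes, the median of the 14 mitotic members lay 1.66 below and that of the 10 replication members 0.21 below under the deposited scaling, distances that a factor per library leaves nearly as they are. With the mitochondrial rRNA share as a covariate, which differs between the conditions without overlap, limma called 0 members and 0 of all genes, with 1985 genes at an unadjusted p under 0.05, and the mitotic median was -0.70, with Mki67 at 0.56 and Cenpe and Top2a at 0.33. Condition and that share cannot be told apart in these libraries.

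**Figure D5:**
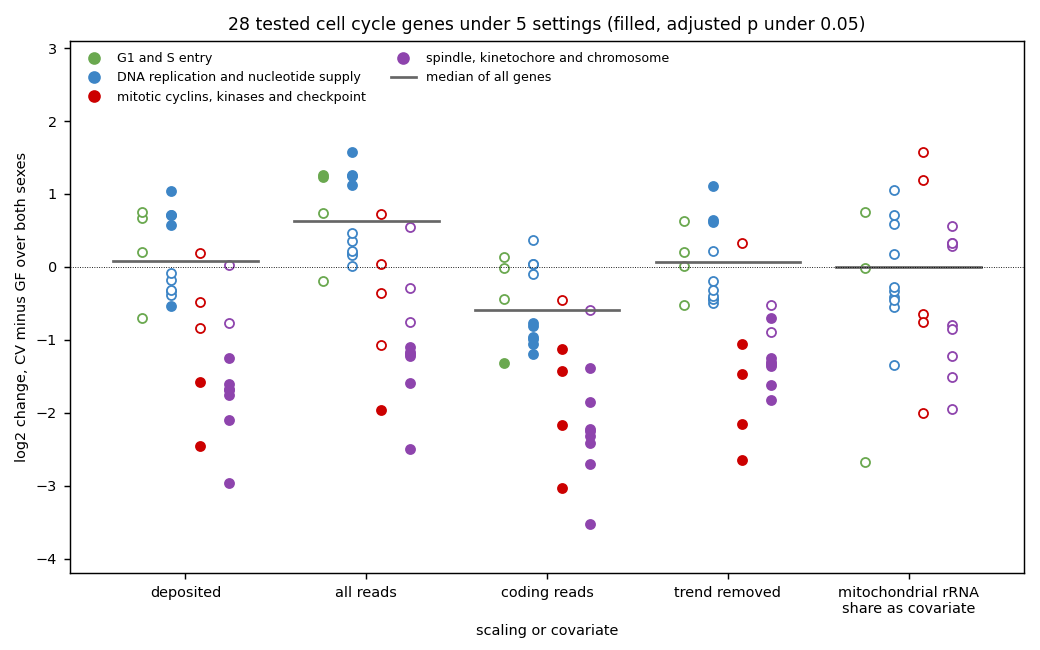
Log2 change over both sexes of the 28 tested members under the deposited scaling, 2 other scalings, removal of the length and GC trend, and the mitochondrial rRNA share as a covariate, coloured by role, with filled points for an adjusted p under 0.05 and a line for the median of all genes. The mitotic points stay below the line under the first 4 settings, except Cdk1, and none is filled under the covariate.

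Further genes of the same pathways were read from wider lists. Among 40 other mitotic genes in the table, 19 were tested, of which 9 were lower and 5 higher over both sexes, against 28.7% and 32.3% of all genes. Kif23 (-1.88 ± 0.40, adjusted p = 0.000755) and Prc1 (-1.91 ± 0.44, adjusted p = 0.00127), which build the central spindle, and Smc2 (-1.11 ± 0.21, adjusted p = 0.000294), a condensin subunit, fell with the members. Bub3, which also serves in interphase nuclei, rose by 1.12 ± 0.23 (adjusted p = 0.000593). Foxm1, the factor that switches on mitotic genes, was below the mean of 10, with values of 0 to 24.2 in GF and 1.34 to 6.36 in CV livers. In each of the 5 other settings that tested Foxm1, it was called lower in females (log2 change -2.52 to -2.17). It was called neither over both sexes nor in males, where its change was 0.19 to 0.62.

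Among 33 tested other replication genes, 9 were higher and 5 lower, a called share of 42.4% against the 61.1% of all genes given above. Dut (1.21 ± 0.24), which keeps uracil out of DNA, Gmnn (1.18 ± 0.22), the licensing inhibitor geminin, and Rfc2 (1.05 ± 0.18), a clamp loader subunit, rose, and Pola1 (-1.34 ± 0.26), the catalytic subunit of polymerase alpha, and Orc4 (-1.04 ± 0.16), of the origin recognition complex, fell. Of 19 tested G1 control genes, 2 were higher, Ccnd3 by 0.93 ± 0.17 and Cdk4 by 0.72 ± 0.16, and 4 were lower, Rb1 (-1.02 ± 0.20) among them. The called share was 31.6%, against 61.1% of all genes. E2f7, an atypical E2F that represses E2F targets, was listed below the mean of 10 with values of 7.98 to 28.7 in GF and 0 to 5.20 in CV livers, which did not overlap. In each of the 8 other settings that tested E2f7, it was called lower over both sexes (log2 change -3.87 to -2.92). Its relative E2f8 had a log2 change of -0.18 ± 0.26 (adjusted p = 0.56). Of 12 tested inhibitors of cyclin-dependent kinases and p53 targets, 3 were higher and 4 lower. This called share of 58.3% was not above the 61.1% of all genes. Cdkn2d rose by 1.91 ± 0.40, Cdkn2c by 1.56 ± 0.43 and Gadd45a by 1.19 ± 0.37, and Mdm2 fell by 1.06 ± 0.22, whereas Cdkn1a (0.73 ± 0.42, adjusted p = 0.143) and Ccng1 (0.35 ± 0.19, adjusted p = 0.12) were not called.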

How the data were processed

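Livers of 12 mice were profiled by stranded mRNA sequencing (Illumina), 3 per condition and labelled sex. The deposited unit is a normalised signal per gene: the authors divided gene counts by 1 size factor per library. Per the submitters' processing notes HTSeq 0.6.1p1, DESeq2 and build GRCm38 were used. The aligner, the annotation and the strand setting are not given in the sources used here. 100% of the values were whole multiples of 1 read (within 0.01 reads), so whole reads were recovered, 5993619 to 15290835 per library. Such counts carry variation between mice and libraries as well as counting error. The p-values set a difference of group means against the spread within groups, which holds all of these. The paper named with the series describes another experiment, and nothing was taken from it.

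limma 3.58.1 was run on log2(value + 1) for genes with a mean of at least 10, with a mean for each of the 4 groups, the prior variance fitted as a trend on expression, and Benjamini-Hochberg adjustment over all 11782 genes at a threshold of 0.05. Fold changes on this scale understate the change of low genes. A difference is CV minus GF, and the interaction is the male minus the female change. The edgeR 4.0.16 quasi-likelihood test with TMM factors on the recovered reads called 3707 genes higher and 3927 lower of 12555. DESeq2 1.42.0, voom, other pseudocounts, filters and scalings, thinning, the mitochondrial rRNA share, a loess trend on length and GC content (span 0.5), a replicate block and leaving out each library made 29 further settings. The limma and edgeR fits were also run on simulated counts with known changes, and the outcome is not reported here. Of the 41128 gene identifiers in the table, 40254 (97.9%) were found in GENCODE M21, which gave transcript lengths. Promoter windows came from RefSeq for 28 of the 35 members (none for Mcm4, Ccne2, Ccna2, Ccnd1, Aurkb, Kif20a and Tpx2).

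The members, the role lists and the marker lists were chosen with earlier results of these data known. Outside the members, genes named were Cdkn1a, Ccng1, Foxm1, E2f7 and E2f8, up to 3 per list and direction with the smallest adjusted p among called genes without overlap of the libraries in either sex, and cell type markers. Of the other marker lists, 3 of 5 hepatocyte and 2 of 5 stellate markers were higher, against 32.3% of all genes. Of the endothelial markers, 1 of 5 was lower (Stab2), against 28.7% of all genes. Of the bile duct markers, 0 of 5 were called, and the 6 neutrophil markers were too low to test. Sgol1 and Ahsp had no row under these symbols. The values of some single marker genes are not reported here.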

Additional observations from a re-analysis of the deposited data

How the results depend on the processing

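Of 6770 recomputed values, over all contrasts, 6461 kept their side of the threshold. Direction was compared only where the main or the recomputed fit made a call, so turns of uncalled values are among the 6461. Over both sexes 14 members were called, 0 with the mitochondrial rRNA covariate, 9 after thinning and 12 to 15 when 1 library was left out. In females (12) the counts were 0, 6 and 9 to 12. In males (3) they were 5 when scaled to all reads, 6 when scaled to coding reads, 5 with edgeR (TMM), 5 with voom, 0 with the covariate and 1 to 4 without 1 library (1 without CV male 1). The interaction (0) gave 1 member, Mki67, with edgeR without a filter, and 0 to 1 without 1 library. The sex difference (0) gave 1 member when scaled to all reads, to coding reads or thinned, 2 with edgeR without a filter and 0 to 1 without 1 library. DESeq2 gave no adjusted p for the members in the interaction. Among values called in the main or the recomputed fit, directions turned as follows. Scaled to all reads, Mcm6 was at 0.011 over both sexes. Scaled to coding reads, Tyms was at -0.10 over both sexes, and in females Pcna was at -0.090, Rrm1 at -0.10, Ccnd3 at -0.10 and Ccng1 at -0.73. With the covariate, over both sexes, Rrm1 was at -0.28, Rrm2 at -0.45, Cenpe at 0.33, Top2a at 0.33, Mki67 at 0.56, Rfc2 at -0.015 and Smc2 at 0.13. In females they were at -0.59, -1.01, 0.46, 0.63, 0.45, -0.32 and 0.049, and Ccnd3 was at -0.054, Dut at -0.44, Pola1 at 0.081 and Prc1 at 0.19. Thinning leaves fewer reads, and the cause of the other changes was not tested. Replicate numbers did not pair GF with CV libraries (correlations of -0.23 to 0.019). Between males and females of 1 number they were 0.12 to 0.19 in CV and 0.059 to 0.40 in GF livers. These values do not settle whether such mice were paired. In a fit with replicate number as a block over all 4 groups, 13 members were called over both sexes, Mcm6 being lost. That block does not test pairs within 1 condition. Depth limits the low mitotic members most, since 3 reads were worth 1.26 to 7.98 in value.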
